A study of Homo sapiens with 9 samples.

Results

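In cells of SKBR3, a long-established line from a human breast cancer that carries extra copies of the HER2 receptor gene, 57 genes lay on the same side of control with both siRNAs against PVRL4, 35 of them lower and 22 higher. They were chosen from the deposited expression table, in RPM, the reads of a gene scaled to a fixed total per library. A gene had to average at least 3 RPM over the 9 libraries, all 6 PVRL4 siRNA libraries had to lie below or above all 3 control libraries, and the mean of each siRNA had to be at most 0.8 of the control mean or, for higher genes, at least the inverse of that ratio. PVRL4 and 3 other named genes (TGFBR1, H19 and SNORA7B) were left out, as was any gene whose siRNA 1 mean was over 3 times control. Of the 20812 genes in the table, 9897 reached 3 RPM. The 35 lower genes were 0.354% of these and the 22 higher genes 0.222%. The differences from control therefore describe the choice, and both they and the counts of members are given with no test.

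Cells were transfected for 48 h with 10 nM siRNA in Lipofectamine RNAiMAX, a lipid reagent. The 3 groups of 3 libraries were PVRL4 siRNA 2, PVRL4 siRNA 1 and a non-targeting control siRNA. Every library, control included, thus came from cells that had received an siRNA and the lipid. The PVRL4 siRNAs were from Integrated DNA Technologies and the control an ON-TARGETplus product of Horizon Discovery, so loss of PVRL4 cannot be told apart from the change of siRNA maker in any comparison with control. Both siRNAs were set against the same 3 control libraries, so an unusual control library moves both comparisons together. In bulk RNA, fewer cells of a type and less RNA per cell cannot be told apart.

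PVRL4, now NECTIN4, encodes nectin-4, an adhesion protein of epithelial cells that binds other nectins across cell contacts. An siRNA guides the RNA-induced silencing complex to a matching messenger RNA, which is cut, and can also lower other messengers that match its seed, usually through their 3' UTR. Double-stranded RNA may in addition set off interferon signalling. Using a second siRNA of another sequence is the common way to tell effects of the target from effects of 1 sequence. The targeted gene read 3.39, 2.91 and 2.58 RPM with siRNA 2, 5.99, 4.36 and 4.67 RPM with siRNA 1 and 9.93, 7.86 and 11.6 RPM in control. Each siRNA 2 library lay below each siRNA 1 library, and each of those below each control library. The means of siRNA 2 and siRNA 1 were 30.2% and 51.0% of the control mean.

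Libraries held 10017130 to 10707777 reads, and 1 read was worth 0.0934 to 0.0998 RPM. The lowest value of a lower member rested on 13 reads and that of a higher member on 24, and PCR reads without molecular identifiers give counting error only. Luminal epithelial markers summed to 9063 to 9646 RPM with siRNA 2, 10429 to 10976 RPM with siRNA 1 and 10654 to 11454 RPM in control, with 1 of 10 markers averaging under 1 RPM. All 5 leukocyte markers averaged under 1 RPM, as did 4 of 5 fibroblast, 3 of 4 endothelial and 3 of 5 basal markers. A list of 42 interferon response genes summed to 523, 557 and 677 RPM with siRNA 2, 9760, 1815 and 4741 RPM with siRNA 1 and 503, 551 and 510 RPM in control. The siRNA 1 libraries stood apart from all others on this list, and its part in the changes of the members was not tested beyond the library order given for the higher members.

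THNSL1 and GPR158 are 1 pair of neighbours on chromosome 10 that both read higher. Of 15 higher members with a promoter at hand, 1 held an interferon-stimulated response element there, B2M. Of 20 such lower members, 1 held an AP-1 motif, DST. AP-1 is the site of the FOS family proteins that the study is about. Promoter sequences of these 4 members are shown. Each runs 5′ to 3′ on the gene's strand from 250 bases before to 50 bases after a RefSeq start of the gene in GRCh38.p14. For THNSL1 this start lies inside the RefSeq gene span, 24952364 to 25026664, and not at its first base. The windows are chr15:44711267-44711566 on the plus strand (B2M), chr10:25016362-25016661 on the plus strand (THNSL1), chr10:25174751-25175050 on the plus strand (GPR158) and chr6:56954781-56955080 on the minus strand (DST). Capitals mark each match, on either strand, to 8 motifs searched, of which CRE (TGACGTCA) and the TATA box (TATAAA) had none here.
B2M: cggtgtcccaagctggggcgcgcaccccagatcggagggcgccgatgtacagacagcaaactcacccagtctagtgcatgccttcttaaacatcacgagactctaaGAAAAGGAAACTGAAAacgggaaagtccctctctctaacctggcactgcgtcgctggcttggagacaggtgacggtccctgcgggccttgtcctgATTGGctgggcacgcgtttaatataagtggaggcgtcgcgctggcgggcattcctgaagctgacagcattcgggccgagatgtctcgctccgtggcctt
THNSL1: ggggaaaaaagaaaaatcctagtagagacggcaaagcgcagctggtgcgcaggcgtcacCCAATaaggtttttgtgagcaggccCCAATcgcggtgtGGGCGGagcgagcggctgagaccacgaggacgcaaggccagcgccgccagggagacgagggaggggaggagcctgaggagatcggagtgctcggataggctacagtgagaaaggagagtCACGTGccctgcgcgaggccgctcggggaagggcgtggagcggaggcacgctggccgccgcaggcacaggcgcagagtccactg
GPR158: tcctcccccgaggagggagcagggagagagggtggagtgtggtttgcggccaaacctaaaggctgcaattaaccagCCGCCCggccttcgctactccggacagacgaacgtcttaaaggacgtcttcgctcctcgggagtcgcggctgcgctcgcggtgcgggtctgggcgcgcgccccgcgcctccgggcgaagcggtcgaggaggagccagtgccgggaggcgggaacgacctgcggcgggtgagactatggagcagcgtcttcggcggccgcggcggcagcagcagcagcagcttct
DST: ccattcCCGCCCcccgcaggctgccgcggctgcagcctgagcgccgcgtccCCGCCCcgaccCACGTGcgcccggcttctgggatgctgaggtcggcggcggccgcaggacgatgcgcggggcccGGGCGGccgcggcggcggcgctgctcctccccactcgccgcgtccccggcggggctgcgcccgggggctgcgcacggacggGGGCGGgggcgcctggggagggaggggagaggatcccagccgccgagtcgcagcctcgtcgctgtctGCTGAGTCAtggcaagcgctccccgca
In B2M they mark a pair of overlapping interferon-stimulated response elements (GAAA, any 2 bases, GAAA) at bases -144 to -135 and -138 to -129 from the start, and a CCAAT box on the other strand at -49 to -45. In THNSL1 they mark CCAAT boxes from -191 and -166, a GC box (GGGCGG) from -153 and an E-box (CACGTG) from -34. In GPR158 they mark a GC box on the other strand from -174. In DST they mark GC boxes from -244 and -199 on the other strand and from -125 and -44, an E-box from -188, and an AP-1 motif (TGANTCA) from 25 to 31 bases after the start, which an antioxidant response element (TGAC, any 3 bases, GC) on the other strand overlaps from 23 to 31. Searched on both strands, the response element was in 2.67% of 7499 promoters of genes that reached 3 RPM, AP-1 in 4.001%, the antioxidant response element in 15.4%, the E-box in 10.8%, the CCAAT box in 37.7%, the GC box in 72.6%, CRE in 3.48% and the TATA box in 4.99%. A RefSeq promoter was at hand for 35 of the 57 members, under 80%, so a share over members would be void and none is given. A match is a description of the letters, not a site at which a factor was measured.

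**Figure D1:**
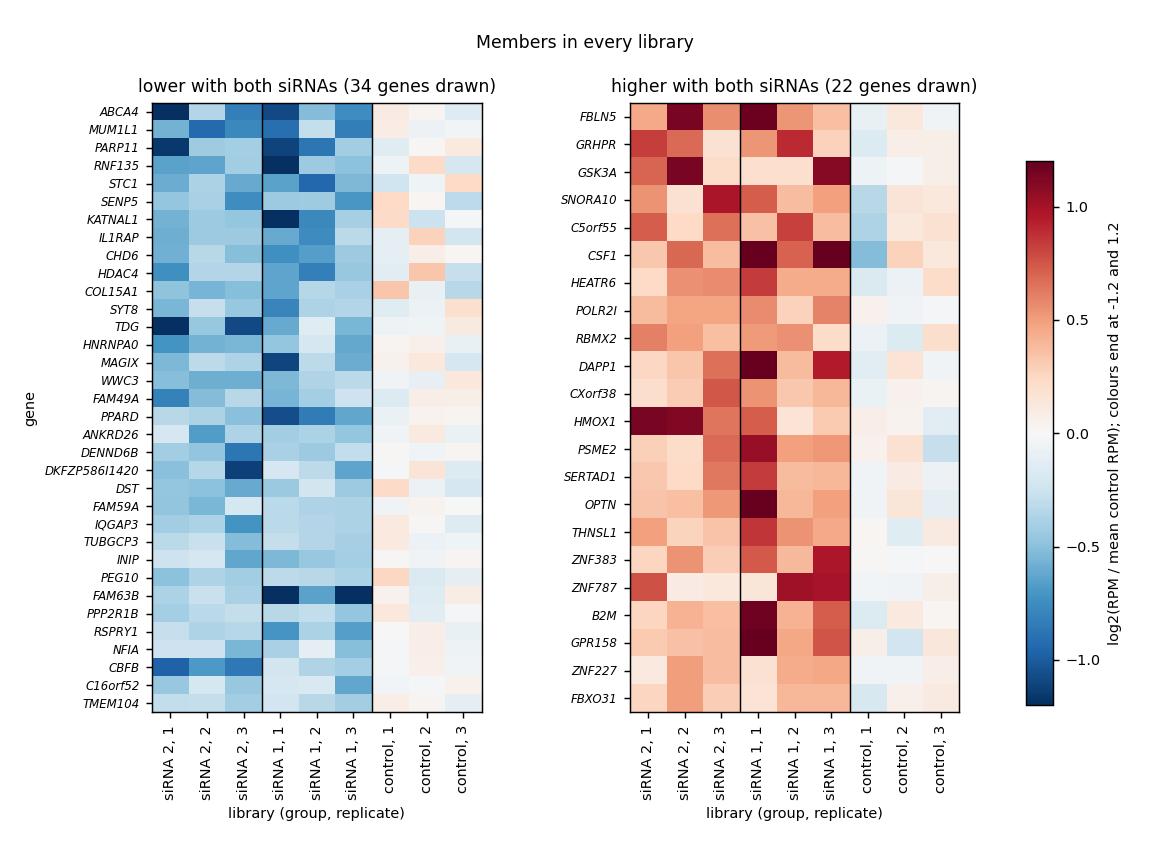
Level of 56 of the 57 members (rows) in each of the 9 libraries (columns, siRNA 2, siRNA 1 and control with replicates 1 to 3), as the log2 ratio of RPM to the mean of the 3 control libraries. The 34 genes on the left lie below control in all 6 siRNA libraries and the 22 on the right above it, which the choice of genes required.

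The changes were modest. The median log2 ratio to control over the 35 lower members was -0.48 with siRNA 2 and -0.45 with siRNA 1, and over the 22 higher members 0.43 with siRNA 2 and 0.59 with siRNA 1. None of the 57 reached a 2-fold change in mean with siRNA 2, and 4 did with siRNA 1: FAM63B among the lower and CSF1, DAPP1 and GPR158 among the higher. The gap between the nearest siRNA and control libraries ranged from 1.004 to 1.203 times, with a median of 1.10 times. In several members the separation therefore rests on nearly equal neighbouring libraries. Control means spanned 4.19 to 303 RPM for lower members and 2.54 to 533 RPM for higher members, with medians of 24.0 and 10.2 RPM, against 31.9 RPM over all genes that reached the minimum.

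The first lower members by the smaller of their changes with the 2 siRNAs included several proteins that act on ubiquitin, SUMO or ADP-ribose. SENP5, a protease that removes SUMO from proteins, read 61.1, 64.4 and 50.4 RPM with siRNA 2, 62.3, 62.6 and 51.8 RPM with siRNA 1 and 99.7, 85.6 and 67.6 RPM in control. Both siRNAs gave nearly the same level, while the 3 control libraries spread widely and the lowest of them came close to the highest siRNA 2 library. The means were 69.5% of control with siRNA 2 and 69.9% with siRNA 1. PARP11, a mono-ADP-ribosyltransferase, read 4.19, 6.98 and 7.06 RPM with siRNA 2, 4.35, 5.13 and 7.004 RPM with siRNA 1 and 8.49, 9.47 and 10.2 RPM in control. PARP11 was lowest in replicate 1 of each group, and the choice required every siRNA library to lie below control. Its means were 64.8% of control with siRNA 2 and 58.6% with siRNA 1. RNF135, a ubiquitin ligase of the RIG-I RNA sensor, read 2.69, 2.71 and 3.15 RPM with siRNA 2, 1.74, 3.10 and 2.99 RPM with siRNA 1 and 4.01, 4.93 and 3.65 RPM in control. The siRNA 1 libraries spread more than those of siRNA 2 and both overlapped each other. The means were 68.0% of control with siRNA 2 and 62.2% with siRNA 1.

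**Figure D2:**
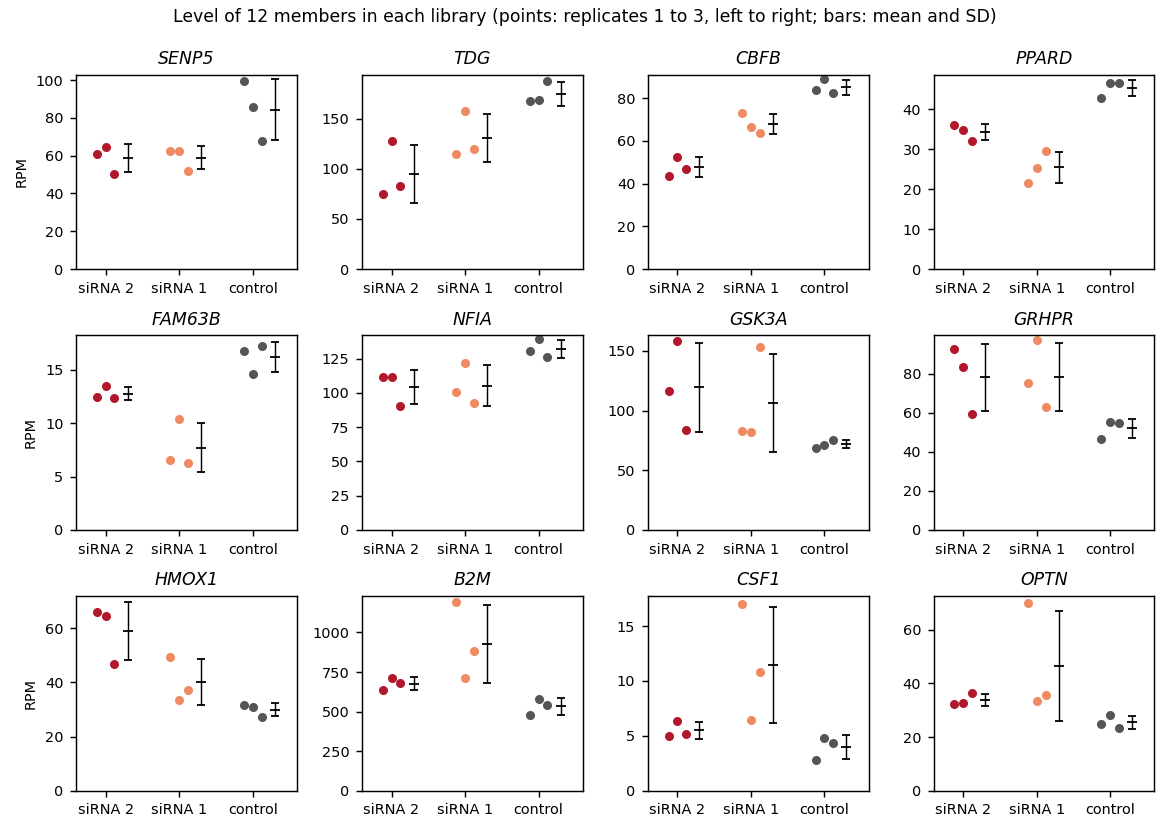
RPM of 12 members in each library (points, replicates 1 to 3 from left to right within siRNA 2, siRNA 1 and control) with the mean and SD of each group (bars), each panel on its own axis from 0. CBFB and TDG are lowest with siRNA 2, FAM63B and PPARD lowest with siRNA 1, and CSF1 and OPTN are far higher in replicate 1 of siRNA 1 than in the other libraries.

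A deubiquitinase, a RING domain protein and a phosphatase subunit lay lower on the list and are given by their range. FAM63B (MINDY2), a deubiquitinase, read 12.4 to 13.5 RPM with siRNA 2, 6.26 to 10.4 RPM with siRNA 1 and 14.6 to 17.2 RPM in control. It is the lower member with the largest difference between the siRNAs, and all 3 siRNA 2 libraries lay above all 3 of siRNA 1. RSPRY1, a RING and SPRY domain protein, read 22.5 to 23.9 RPM with siRNA 2, 17.8 to 22.3 RPM with siRNA 1 and 27.3 to 30.7 RPM in control, and PPP2R1B, a scaffold subunit of protein phosphatase 2A, 75.5 to 82.3 RPM with siRNA 2, 72.7 to 81.7 RPM with siRNA 1 and 91.8 to 109.6 RPM in control.

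Genes that act on chromatin, DNA and RNA were the next group. TDG, a DNA glycosylase that excises thymine from G-T mismatches and oxidised methylcytosine, read 74.6, 128 and 82.7 RPM with siRNA 2, 115, 158 and 119.7 RPM with siRNA 1 and 167, 169 and 188 RPM in control. Replicate 2 was the highest library with either siRNA, and with siRNA 1 it came near the lowest control. The means were 54.4% of control with siRNA 2 and 74.9% with siRNA 1. CBFB, the partner that stabilises RUNX transcription factors on DNA, read 43.4, 52.6 and 47.0 RPM with siRNA 2, 73.1, 66.3 and 63.9 RPM with siRNA 1 and 83.6, 88.8 and 82.6 RPM in control. The 3 groups did not overlap one another, and its siRNA 1 mean lay just inside the limit, since the means were 56.1% of control with siRNA 2 and 79.7% with siRNA 1.

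HNRNPA0, an RNA-binding protein of messenger RNA, read 34.5, 38.4 and 38.8 RPM with siRNA 2, 41.3, 49.6 and 37.2 RPM with siRNA 1 and 58.0, 59.2 and 53.4 RPM in control. Only replicate 3 of siRNA 1 fell among the siRNA 2 libraries. Its means were 65.5% of control with siRNA 2 and 75.1% with siRNA 1. CHD6, a chromatin-remodelling helicase, read 7.19, 8.53 and 7.54 RPM with siRNA 2, 6.47, 6.78 and 7.94 RPM with siRNA 1 and 9.93, 11.4 and 10.9 RPM in control. The siRNA groups overlapped and the control libraries were close together above them. The means were 72.1% of control with siRNA 2 and 65.7% with siRNA 1. HDAC4, a class IIa histone deacetylase, read 4.29, 5.62 and 5.63 RPM with siRNA 2, 4.64, 4.07 and 5.23 RPM with siRNA 1 and 6.58, 9.0 and 5.91 RPM in control. Control replicate 2 was far above the other control libraries, which lay not far above the siRNA libraries. The means were 72.3% of control with siRNA 2 and 64.8% with siRNA 1.

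MUM1L1 (PWWP3B), a PWWP-domain protein, read 5.49, 4.26 and 4.77 RPM with siRNA 2, 4.35, 6.68 and 4.58 RPM with siRNA 1 and 8.69, 7.77 and 7.98 RPM in control. Apart from 1 siRNA 1 library the siRNA values were close together. The means were 59.4% of control with siRNA 2 and 63.8% with siRNA 1. Other nuclear members were NFIA, a transcription factor, at 90.3 to 112 RPM with siRNA 2, 93.0 to 122 RPM with siRNA 1 and 126 to 139.6 RPM in control, and PPARD, a nuclear receptor for fatty acids, at 32.0 to 35.9 RPM with siRNA 2, 21.6 to 29.4 RPM with siRNA 1 and 42.9 to 46.5 RPM in control. INIP, a subunit of a single-stranded DNA-binding complex in DNA repair, read 11.5 to 15.5 RPM with siRNA 2, 12.3 to 13.4 RPM with siRNA 1 and 17.2 to 18.1 RPM in control. All 3 stayed under the lowest control, as the choice required, and in PPARD all siRNA 1 libraries were also under all siRNA 2 libraries.

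Membrane and secreted proteins formed another part of the lower members. ABCA4, known as a retinoid transporter of the retina, had the largest smaller-of-both change of all and read 1.30, 3.68 and 2.67 RPM with siRNA 2, 2.22, 3.29 and 2.80 RPM with siRNA 1 and 5.06, 4.83 and 4.24 RPM in control. These are few reads per library, and the siRNA 2 libraries spread widely while control was even. The means were 54.2% of control with siRNA 2 and 58.9% with siRNA 1. STC1, a secreted glycoprotein hormone first known from calcium balance in fish, read 6.99, 8.14 and 6.96 RPM with siRNA 2, 6.76, 5.52 and 7.28 RPM with siRNA 1 and 8.97, 10.2 and 12.5 RPM in control. Every siRNA library was below every control library, as the choice required, and control replicate 3 was the highest of all. The means were 69.6% of control with siRNA 2 and 61.7% with siRNA 1.

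IL1RAP, the co-receptor of the interleukin-1 receptor, read 5.69, 6.30 and 6.30 RPM with siRNA 2, 5.602, 5.04 and 6.82 RPM with siRNA 1 and 7.92, 10.3 and 7.29 RPM in control. Control replicate 2 stood out while control replicate 3 was close to the highest siRNA 1 library. The means were 71.6% of control with siRNA 2 and 68.3% with siRNA 1. COL15A1, a collagen of basement membranes, read 8.09, 7.66 and 7.92 RPM with siRNA 2, 7.24, 8.91 and 8.59 RPM with siRNA 1 and 14.2, 10.6 and 8.97 RPM in control. Its nearest libraries, siRNA 1 replicate 2 and control replicate 3, were almost equal, and control replicate 1 was much the highest. The means were 70.0% of control with siRNA 2 and 73.2% with siRNA 1. SYT8, a synaptotagmin family protein, read 10.98, 13.3 and 11.7 RPM with siRNA 2, 9.27, 12.5 and 12.6 RPM with siRNA 1 and 14.5, 15.3 and 18.4 RPM in control. Both siRNA groups spanned like values below control. The means were 74.5% of control with siRNA 2 and 71.2% with siRNA 1.

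TMEM104, which RefSeq lists as SLC38A12, read 42.6 to 46.8 RPM with siRNA 2, 42.6 to 48.8 RPM with siRNA 1 and 52.5 to 60.1 RPM in control, and PEG10, a paternally expressed imprinted gene of retrotransposon origin, read 215 to 234 RPM with siRNA 2, 232 to 244 RPM with siRNA 1 and 268 to 361 RPM in control. In PEG10 the siRNA libraries kept within a narrow band and control replicate 1 was far above the other controls.

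Cytoskeletal and scaffold proteins were the remaining group with known roles. KATNAL1, a katanin-like microtubule-severing protein, read 3.89, 4.26 and 4.20 RPM with siRNA 2, 2.51, 3.39 and 4.39 RPM with siRNA 1 and 6.78, 4.83 and 5.72 RPM in control. Replicate 1 of siRNA 1 was lowest and replicate 1 of control highest. The means were 71.3% of control with siRNA 2 and 59.4% with siRNA 1. MAGIX, a PDZ-domain protein, read 3.99, 4.65 and 4.48 RPM with siRNA 2, 2.70, 4.65 and 3.83 RPM with siRNA 1 and 6.01, 6.35 and 5.03 RPM in control. Here too replicate 1 of siRNA 1 was the lowest library, and the siRNA groups overlapped. The means were 75.5% of control with siRNA 2 and 64.3% with siRNA 1.

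The others in this group are given by range only. TUBGCP3, a core subunit of the gamma-tubulin ring complex, read 61.9 to 74.0 RPM with siRNA 2, 67.4 to 73.0 RPM with siRNA 1 and 84.7 to 96.6 RPM in control. DST, a giant linker between filament systems whose promoter is among those shown, read 17.0 to 18.7 RPM with siRNA 2, 18.9 to 22.2 RPM with siRNA 1 and 22.5 to 30.4 RPM in control, and IQGAP3, a scaffold for small GTPases, 35.7 to 45.1 RPM with siRNA 2, 45.2 to 46.9 RPM with siRNA 1 and 52.9 to 63.9 RPM in control. In TUBGCP3 the siRNA groups overlapped, while in DST and IQGAP3 all siRNA 2 libraries lay just below all siRNA 1 libraries. WWC3, a scaffold of the Hippo pathway, read 22.2 to 23.5 RPM with siRNA 2, 22.9 to 26.7 RPM with siRNA 1 and 31.2 to 36.4 RPM in control, FAM49A (CYRIA), which binds active RAC1, 29.4 to 41.1 RPM with siRNA 2, 35.1 to 43.4 RPM with siRNA 1 and 46.3 to 54.6 RPM in control, and DENND6B, an activator of Rab GTPases, 5.53 to 7.59 RPM with siRNA 2, 7.46 to 8.22 RPM with siRNA 1 and 9.76 to 10.3 RPM in control. In DENND6B the 3 control libraries were close together.

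The last 4 lower members are given without a role. They are ANKRD26 at 8.91 to 12.4 RPM with siRNA 2, 10.3 to 10.9 RPM with siRNA 1 and 13.4 to 15.4 RPM in control, C16orf52 at 14.6 to 17.3 RPM with siRNA 2, 13.0 to 17.6 RPM with siRNA 1 and 19.7 to 20.8 RPM in control, FAM59A at 17.1 to 21.6 RPM with siRNA 2, 19.2 to 19.99 RPM with siRNA 1 and 24.3 to 25.8 RPM in control and the transcript DKFZP586I1420 at 11.1 to 18.99 RPM with siRNA 2, 15.5 to 20.9 RPM with siRNA 1 and 21.5 to 26.8 RPM in control. Their siRNA groups overlapped each other in every case.

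Among the higher members, enzymes and kinases of metabolism and signalling had some of the largest changes, with wide spread. GSK3A, a glycogen synthase kinase, read 117, 158 and 83.9 RPM with siRNA 2, 82.8, 82.3 and 153 RPM with siRNA 1 and 68.9, 71.1 and 75.2 RPM in control. The highest library had a different replicate number in each siRNA group, and the lowest siRNA libraries lay just above an even control. The means were 167% of control with siRNA 2 and 148% with siRNA 1. GRHPR, which reduces glyoxylate and hydroxypyruvate, read 92.4, 83.2 and 59.1 RPM with siRNA 2, 75.05, 97.1 and 62.9 RPM with siRNA 1 and 46.5, 55.2 and 54.6 RPM in control. Replicate 3 was the lowest library with either siRNA and lay close to the upper control libraries. Its means were 150.2% of control with siRNA 2 and 150.4% with siRNA 1.

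HMOX1, haem oxygenase 1, an enzyme that breaks down haem and a known target of the oxidative stress factor NRF2, read 65.9, 64.4 and 46.7 RPM with siRNA 2, 49.5, 33.5 and 37.3 RPM with siRNA 1 and 31.7, 30.9 and 27.2 RPM in control. Replicates 1 and 2 of siRNA 2 were the highest libraries, replicate 3 fell under the highest siRNA 1 library, and siRNA 1 replicate 2 was near control. The means were 197% of control with siRNA 2 and 134% with siRNA 1. THNSL1, a threonine synthase-like protein, read 4.17 to 4.89 RPM with siRNA 2, 4.76 to 6.28 RPM with siRNA 1 and 3.13 to 3.75 RPM in control. Its promoter is among those printed, and its siRNA groups overlapped in part.

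Genes of immune signalling and antigen display formed a second group. CSF1, the growth factor of macrophages, read 4.99, 6.396 and 5.15 RPM with siRNA 2, 17.0, 6.49 and 10.8 RPM with siRNA 1 and 2.77, 4.83 and 4.34 RPM in control. Replicate 1 of siRNA 1 was far above all others, and siRNA 2 lay little above control. The means were 139% of control with siRNA 2 and 288% with siRNA 1, the largest change of any member with siRNA 1. DAPP1, a phosphoinositide-binding adaptor of immune cells, read 14.8, 15.6 and 19.7 RPM with siRNA 2, 41.8, 16.2 and 24.0 RPM with siRNA 1 and 11.3, 13.9 and 12.03 RPM in control. Its siRNA 1 libraries had the same order, replicate 1 highest and replicate 2 lowest. The means were 134% of control with siRNA 2 and 220.3% with siRNA 1.

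PSME2, a subunit of the PA28 proteasome activator, read 45.0, 43.0 and 59.4 RPM with siRNA 2, 76.5, 52.2 and 53.05 RPM with siRNA 1 and 38.5, 42.0 and 30.6 RPM in control. Replicate 1 of siRNA 1 was again highest, and the lowest siRNA 2 library almost met the highest control. The means were 133% of control with siRNA 2 and 164% with siRNA 1. OPTN, optineurin, an autophagy receptor, read 32.1, 32.7 and 36.3 RPM with siRNA 2, 70.0, 33.5 and 35.8 RPM with siRNA 1 and 24.7, 28.0 and 23.5 RPM in control. Apart from replicate 1 of siRNA 1, the other 5 siRNA libraries lay within a narrow band above control. The means were 133% of control with siRNA 2 and 183% with siRNA 1. B2M, the light chain of MHC class I molecules, read 636 to 713 RPM with siRNA 2, 710.1 to 1193 RPM with siRNA 1 and 477 to 579 RPM in control.

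Genes of transcription and RNA were another group. SNORA10, a small nucleolar RNA that guides pseudouridylation, read 16.4, 12.8 and 22.2 RPM with siRNA 2, 18.6, 14.6 and 15.9 RPM with siRNA 1 and 8.97, 12.6 and 12.3 RPM in control. The lowest siRNA 2 library and the highest control library were almost equal. Its means were 152% of control with siRNA 2 and 145% with siRNA 1, and the amplicon may also take reads from the longer transcript it is processed from. POLR2I, a subunit of RNA polymerase II, read 7.89, 8.43 and 8.39 RPM with siRNA 2, 8.98, 7.36 and 9.15 RPM with siRNA 1 and 6.30, 5.87 and 6.01 RPM in control. This was one of the evenest members, with tight siRNA 2 and control libraries. The means were 136% of control with siRNA 2 and 140.2% with siRNA 1. RBMX2, a splicing factor, read 13.0, 12.02 and 10.97 RPM with siRNA 2, 12.2, 12.5 and 9.90 RPM with siRNA 1 and 8.11, 7.58 and 9.86 RPM in control. Its closest siRNA and control libraries, siRNA 1 replicate 3 and control replicate 3, differed by the least of all members. The means were 141% of control with siRNA 2 and 135% with siRNA 1.

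SERTAD1, a CDK4-binding co-regulator of transcription, read 12.4, 11.7 and 15.4 RPM with siRNA 2, 17.8, 12.9 and 13.1 RPM with siRNA 1 and 9.64, 10.6 and 9.46 RPM in control. The siRNA groups overlapped, and siRNA 1 replicate 1 was highest. The means were 133% of control with siRNA 2 and 147% with siRNA 1. The zinc finger genes ZNF383 at 5.39 to 6.59 RPM with siRNA 2, 5.91 to 8.87 RPM with siRNA 1 and 4.45 to 4.58 RPM in control, ZNF787 at 2.71 to 4.29 RPM with siRNA 2, 2.80 to 5.13 RPM with siRNA 1 and 2.46 to 2.66 RPM in control and ZNF227 at 25.5 to 33.0 RPM with siRNA 2, 26.6 to 32.2 RPM with siRNA 1 and 22.7 to 24.7 RPM in control were also higher. In ZNF787 both siRNA groups spread widely and their lowest libraries came close to control. C5orf55, which RefSeq lists as the antisense RNA EXOC3-AS1, read 4.89, 3.49 and 4.67 RPM with siRNA 2, 3.77, 5.23 and 3.83 RPM with siRNA 1 and 2.29, 3.22 and 3.35 RPM in control. Both siRNA groups covered similar spans a little above control, and without stated strand its reads cannot be told apart from those of EXOC3. The means were 147% of control with siRNA 2 and 145% with siRNA 1.

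The other higher members had varied or uncertain roles. FBLN5, a glycoprotein of elastic fibres, had the largest smaller-of-both change among the higher members and read 4.89, 7.85 and 5.25 RPM with siRNA 2, 8.02, 5.13 and 4.58 RPM with siRNA 1 and 3.34, 3.88 and 3.45 RPM in control. Each siRNA group had 1 library well above its other 2, under different replicate numbers, while control was even. The means were 169% of control with siRNA 2 and 166% with siRNA 1. HEATR6, a HEAT-repeat protein, read 4.69, 5.81 and 5.92 RPM with siRNA 2, 7.15, 5.42 and 5.42 RPM with siRNA 1 and 3.53, 3.79 and 4.63 RPM in control. Its lowest siRNA 2 library nearly equalled its highest control. The means were 137% of control with siRNA 2 and 150.5% with siRNA 1.

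CXorf38, given here without a role, read 10.5, 11.2 and 15.3 RPM with siRNA 2, 13.2, 11.3 and 11.95 RPM with siRNA 1 and 8.59, 9.38 and 9.27 RPM in control. Replicate 3 of siRNA 2 was highest and the control libraries lay close together beneath. The means were 136% of control with siRNA 2 and 134% with siRNA 1. GPR158, a G protein-coupled receptor of the brain, read 13.2 to 13.6 RPM with siRNA 2, 14.6 to 33.6 RPM with siRNA 1 and 9.0 to 11.6 RPM in control, with replicate 1 of siRNA 1 far above the others. FBXO31, an F-box subunit of a ubiquitin ligase, read 34.7 to 41.2 RPM with siRNA 2, 32.5 to 38.4 RPM with siRNA 1 and 25.5 to 31.3 RPM in control.

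The fold limit cut through a continuous range. Just inside it on the lower side were TMEM104 at 79.5% of control with siRNA 2 and 79.9% with siRNA 1, C16orf52 at 77.5% of control with siRNA 2 and 79.9% with siRNA 1, and CBFB at 56.1% of control with siRNA 2 and 79.7% with siRNA 1. Just outside were SLC16A10, an amino acid transporter, at 80.04% of control with siRNA 2 and 57.2% with siRNA 1, RAD1, a DNA damage checkpoint clamp subunit, at 75.9% of control with siRNA 2 and 80.2% with siRNA 1, and PANK3, a pantothenate kinase, at 80.5% of control with siRNA 2 and 65.3% with siRNA 1. On the higher side FBXO31 stood just inside at 128% of control with siRNA 2 and 125% with siRNA 1, ZNF227 at 127% of control with siRNA 2 and 129% with siRNA 1 and GPR158 at 127% of control with siRNA 2 and 208% with siRNA 1. The nearest outside were ZNF394 at 125% of control with siRNA 2 and 125% with siRNA 1, KBTBD7 at 124% of control with siRNA 2 and 130% with siRNA 1, and IQCK at 132% of control with siRNA 2 and 123% with siRNA 1. Without any fold limit, all 6 siRNA libraries lay below all 3 controls in 129 genes (1.31% of 9829) and above them in 87 (0.885%). These shares have no reference here. Whether they exceed the shares to be found without any effect of the siRNAs was not tested.

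A further 14 genes met the terms but were left out as named. They were PVRL4, SNORA7B, and 12 higher genes whose siRNA 1 mean was over 3 times control. Those 12 were APOL3, DHX58, GBP1, IFIT1, IFIT5, LGALS9, MX1, OAS1, PML, PSMB9, TAP1 and TRIM22, which are known as interferon-responsive. Among them TAP1, a peptide transporter of antigen display, averaged 71.4 RPM with siRNA 2, 157 RPM with siRNA 1 and 47.5 RPM in control, and PML, the scaffold of nuclear bodies, averaged 4.16 RPM with siRNA 2, 18.4 RPM with siRNA 1 and 3.01 RPM in control.

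**Figure D3:**
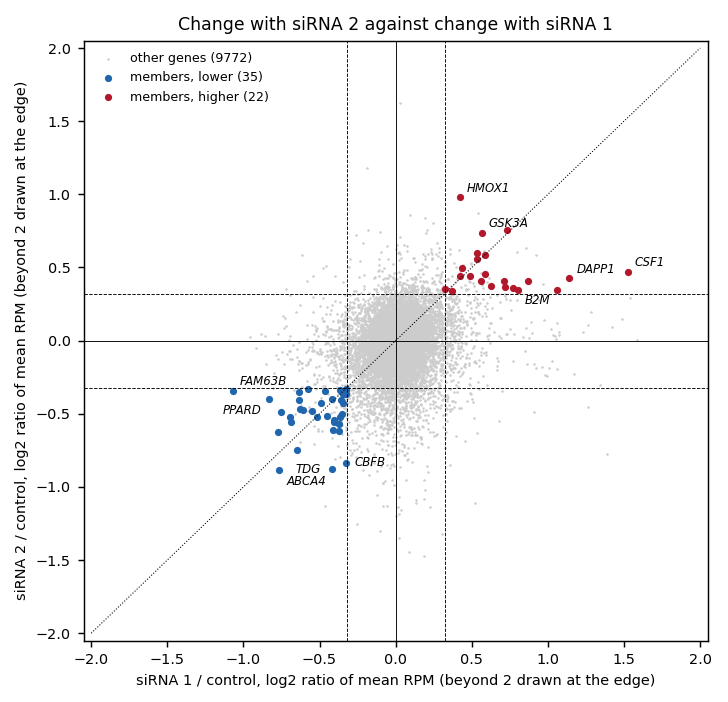
Log2 ratio of mean RPM to control with siRNA 2 (vertical) against siRNA 1 (horizontal) for the 57 members (blue lower, red higher) and 9772 other genes of at least 3 RPM (grey), with dashed lines at the limits of the choice, 0.8 times and its inverse, and a dotted line of equal change. The 68 genes left out of the choice are not drawn, and both comparisons use the same 3 control libraries.

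Because the same libraries chose and described the genes, the choice was repeated on the 6 libraries of 2 replicate numbers and read in the 3 libraries of the number held out, a step added after the data had been seen. With number 1 held out, 88 genes were chosen as lower and 45 of them (51.1%) were lower than the held-out control library in both held-out siRNA libraries, against 26.0% of all genes. With number 2 held out, 50 of 78 (64.1%) were, against 39.6%, and with number 3, 52 of 92 (56.5%), against 30.1%. The held-out siRNA levels of these lower choices had median ratios to control of 0.886, 0.839 and 0.860.

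For higher choices the shares were 34 of 56 (60.7%) with number 1 held out, against 37.4% of all genes. They were 34 of 99 (34.3%) against 25.3% with number 2 and 35 of 90 (38.9%) against 25.6% with number 3. The median held-out ratios were 1.203, 1.03 and 1.08. The shares of chosen genes exceeded those of all genes in all 6 readings, and in 2 of the 6 fewer than 40% of the chosen genes repeated their direction in the held-out libraries. With numbers 1, 2 and 3 held out, members made up 23, 28 and 26 of the lower choices and 14, 16 and 15 of the higher ones. Most genes read were thus not members, and the shares are no test of the members. Libraries of the same number resemble each other across groups, so the held-out number shares its own deviations between its siRNA and control libraries.

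The difference between siRNA 2 and siRNA 1 holds no control value, though the fit took its spread from all 9 libraries, controls included. It was not free of the choice, which held both siRNA means to the same side of control. By limma on log2(RPM + 1) over 11158 genes, 1 of 57 members passed an adjusted p of 0.05, against 340 genes or 3.05% of all tested. CBFB was lower with siRNA 2 than with siRNA 1 by a log2 difference of -0.50 (95% interval -0.73 to -0.27, limma adjusted p = 0.0228), with means of 47.7 ± 4.63 RPM with siRNA 2 and 67.8 ± 4.79 RPM with siRNA 1 (SD, n = 3 each). All 3 siRNA 2 libraries lay below all 3 siRNA 1 libraries. The call was lost when siRNA 1 replicate 1 (adjusted p = 0.101), siRNA 1 replicate 2 (0.0587), siRNA 2 replicate 1 (0.0854) or siRNA 2 replicate 3 (0.0506) was left out of limma. It was also lost when limma was run on the 6 siRNA libraries alone (adjusted p = 0.0603) or without the trend (0.0579).

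With replicate number as the block in limma, 6 members passed, against 9.33% of all genes. Lower with siRNA 2 were CBFB (adjusted p = 0.00318), TDG (0.0180) and CSF1 (0.0482), and higher with siRNA 2 were HMOX1 (0.00725), FAM63B (0.0119) and PPARD (0.0281). Without the block the log2 difference was -0.48 for TDG, -0.85 for CSF1, 0.55 for HMOX1, 0.69 for FAM63B and 0.42 for PPARD, with limma adjusted p of 0.176, 0.126, 0.0934, 0.0519 and 0.107. For the lower genes FAM63B and PPARD, a higher level with siRNA 2 means a smaller drop, and for the higher gene HMOX1 a larger gain. Without the block, 9 of the 57 had an unadjusted p under 0.05, where 15.1% of all genes did, so the count is near the background. Those not named above are B2M (-0.42), GPR158 (-0.59) and DAPP1 (-0.59).

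In 38 of the 57 members the siRNAs differed by at most 0.2 on the log2 scale, 26 of the 35 lower and 12 of the 22 higher, against 63.2% of all genes tested. The median 95% interval reached 0.35 to either side. In a typical member with 3 libraries a group, smaller differences would thus not reach even an unadjusted p of 0.05. Larger ones could still miss the adjusted threshold, as CSF1 did at -0.85 (limma adjusted p = 0.126), so members not called are not shown to be alike. The change from control was larger with siRNA 2 in 19 of 35 lower members and in 8 of 22 higher members.

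**Figure D4:**
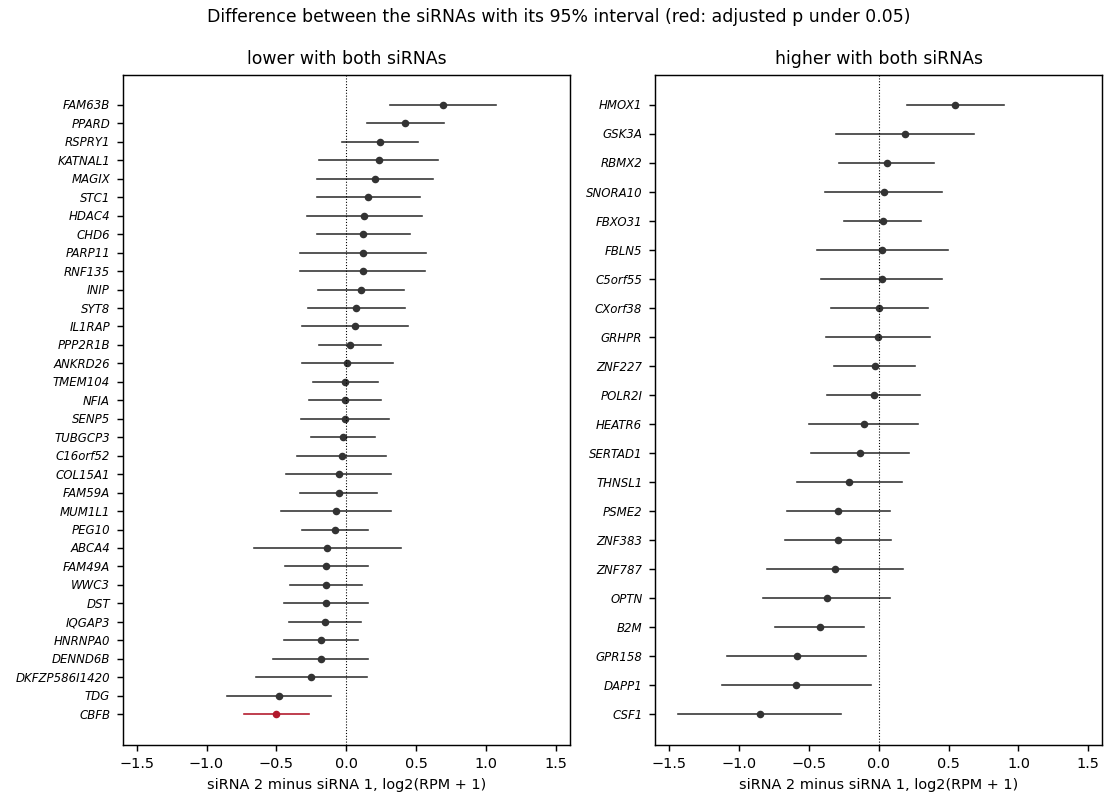
Difference in log2(RPM + 1) between siRNA 2 and siRNA 1 for 56 of the 57 members (points) with its 95% limma interval (lines). CBFB, in red, is the member past an adjusted p of 0.05, at -0.50.

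The other genes of the members' pathways were counted with the members left out. In a list of oxidative stress and NRF2 genes, which holds HMOX1, limma called 0 of 19 other genes with either siRNA (at an unadjusted p under 0.05 it found 1 with siRNA 2 and 0 with siRNA 1, and edgeR and DESeq2 also called 0). Their median log2 change was 0.12 with siRNA 2 and 0.09 with siRNA 1, against -0.02 and 0.01 over all genes. Of all genes, 9.42% with siRNA 2 and 6.04% with siRNA 1 had an unadjusted p under 0.05 by limma. The smallest p values with siRNA 2 belonged to SOD2, a mitochondrial superoxide dismutase, at 0.23 (limma adjusted p = 0.412) and SLC7A11, the cystine transporter, at 0.33 (0.597). With siRNA 1 they belonged to NQO1, a quinone reductase, at 0.21 (limma adjusted p = 0.958) and TALDO1, a pentose phosphate enzyme, at 0.18 (0.970). With the replicate block limma still called 0 of the 19 against control. At an unadjusted p under 0.05 it then found 6 with siRNA 2 and 2 with siRNA 1. The share of all genes at that p with the block was not counted. Between the siRNAs, SOD2 passed with the block and was higher with siRNA 2.

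Among chromatin regulators, whose list holds HDAC4, limma, edgeR and DESeq2 each called 0 of 31 other genes with either siRNA (4 with siRNA 2 and 1 with siRNA 1 had an unadjusted p under 0.05 by limma). The smallest p values with siRNA 2 were those of DNMT1, the maintenance DNA methyltransferase, at -0.28 (limma adjusted p = 0.366) and SMARCA4, a remodeller ATPase, at -0.29 (0.431). With siRNA 1 they were those of TET2, a methylcytosine oxidase, at 0.36 (limma adjusted p = 0.761) and DNMT1 at -0.21 (0.922). With the replicate block limma still called 0 of the 31 genes against control. At an unadjusted p under 0.05 it then found 5 with siRNA 2 and 4 with siRNA 1. Between the siRNAs, TET2 passed with the block and was lower with siRNA 2. Over all 31 lists together, 10 of 683 genes outside the members passed with siRNA 2, 3 higher and 7 lower, where 0.0358% of all genes were called higher and 0.645% lower. PVRL4, the targeted gene, was among the 7 lower (limma adjusted p = 0.00224). It did not pass by limma with siRNA 1 (adjusted p = 0.0601), though it did with the replicate block (0.0132). With siRNA 1, 38 passed, 36 higher and 2 lower, where 0.636% of all genes were called higher and 0.215% lower, and 35 of the 36 were interferon response genes, of which limma called 0 of 41 with siRNA 2 (0 had an unadjusted p under 0.05, and edgeR and DESeq2 called 0).

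Close relatives and partners of members, grouped in 37 families after the members were known but not by how the relatives moved, gave 136 tested genes. Limma called 0 of them with siRNA 2, while edgeR called 0 and DESeq2 2. By limma 14 of the 136 had an unadjusted p under 0.05 with siRNA 2, as did 9.42% of all genes. With siRNA 1 limma called 5, all higher. These were PARP9, PARP10, PARP12 and PARP14, relatives of the lower member PARP11, and PSMB9, an immunoproteasome subunit beside PSME2. Their direction with siRNA 1 was thus opposite to that of PARP11 in the case of the PARP genes, and all 5 are named because they were called. With the block, 4 relatives passed with siRNA 2, all lower, and 10 with siRNA 1, 8 higher and 2 lower. The share of all genes that pass against control with the block was not counted.

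Nearest relatives gave side-by-side levels. Members are given with no test against control, so the p values of relatives do not set them apart from members. GSK3B, the other kinase of the GSK3A pair, averaged 56.6 ± 5.37 RPM with siRNA 2, 57.1 ± 3.47 RPM with siRNA 1 and 56.7 ± 2.08 RPM in control (SD, n = 3 each). HMOX2, the constitutive haem oxygenase, averaged 55.6 ± 3.58 RPM with siRNA 2, 60.5 ± 5.79 RPM with siRNA 1 and 60.3 ± 11.7 RPM in control. For NFIB, a relative of NFIA, the means were 20.8 ± 2.83 RPM with siRNA 2, 33.5 ± 2.64 RPM with siRNA 1 and 31.3 ± 2.33 RPM in control. The log2 change of GSK3B was -0.01 with siRNA 2 and 0.01 with siRNA 1 (limma adjusted p = 0.987 and 1.00). That of NFIB was -0.58 with siRNA 2, which passed with the replicate block and by DESeq2 but not by limma without the block (adjusted p = 0.0764), and 0.09 with siRNA 1 (1.00).

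Within the siRNA 1 libraries, the interferon sum was highest in replicate 1 and lowest in replicate 2. The same order held in 10 of 22 higher members (45.5%), in 0 of 35 lower members and in 16.6% of the 9897 genes. The 10 were SNORA10, CSF1, DAPP1, CXorf38, HMOX1, PSME2, SERTAD1, OPTN, B2M and GPR158. With siRNA 2 the interferon sums were 523, 557 and 677 RPM, of which only the lowest fell within the 503 to 551 RPM of control. The same 10 members lay above control with siRNA 2, as the choice required. The median log2 difference from control of 41 interferon genes was 0.23 with siRNA 2 by limma, against -0.02 over all genes. For these 41 it was 0.63 by edgeR and 0.63 by DESeq2, and the log2(RPM + 1) scale of limma understates changes of low genes. The 12 interferon-responsive genes left out of the choice also lay above control in every siRNA 2 library, which the terms required. Their siRNA 2 means were 1.38 to 23.3 times control, with a median of 2.19. The 23.3 is that of IFIT1, at 0.599, 0.291 and 5.92 RPM with siRNA 2 and 0, 0.095 and 0.197 RPM in control. Control means of IFIT1, TRIM22 (0.192 RPM) and DHX58 (0.224 RPM) lay under the floor of 3 reads, so their ratios are loose. Several of the 12 reached 3 RPM only through siRNA 1. Of the 12, OAS1 makes the activator of the antiviral nuclease RNase L. It read 4.29, 6.396 and 14.4 RPM with siRNA 2, 524, 66.7 and 249 RPM with siRNA 1 and 2.48, 3.98 and 2.46 RPM in control. Replicate 3 was the highest library with siRNA 2, and replicate 1 with siRNA 1. The part of the interferon response in their levels was not tested.

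The lower members tended to be long genes, a feature the choice did not use. RefSeq matched 32 lower and 21 higher members by gene ID. The median gene length was 69353 bases for the lower members, 20641 for the higher and 31385 over all genes that reached 3 RPM. Genes over 100 kb made up 12 of 32 lower members (37.5%), 1 of 21 higher members (4.76%) and 17.5% of all. The 3' UTR, where siRNA seeds usually match, had a median of 2172 bases over 32 lower members, 783 over 19 higher members and 1031 over 9009 genes. It was read from the GENCODE transcript with the longest coding sequence, and the choice of transcript can set it. For the lower members PEG10 and DST it came to 16 and 37 bases. An amplicon reads 1 short stretch of a gene, so its length does not enter the count. These lengths are a description, with no test.

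**Figure D5:**
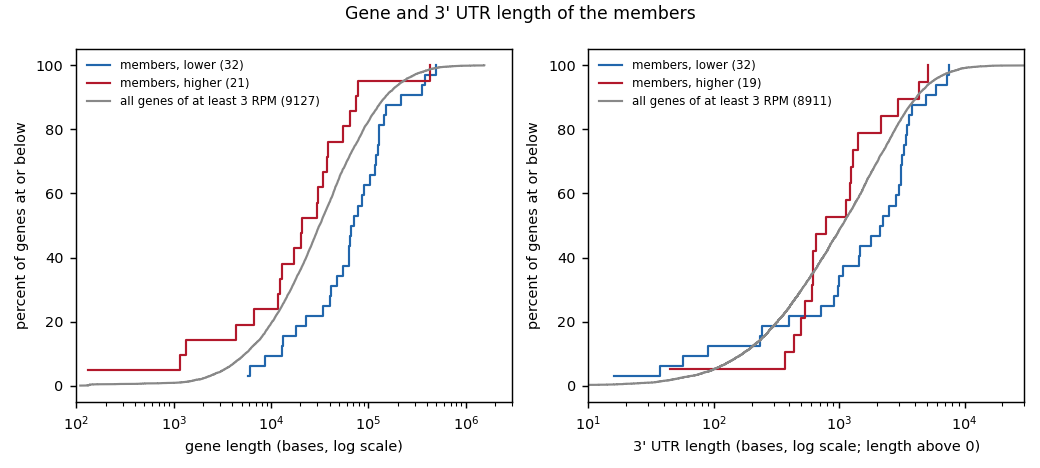
Share of genes (percent, vertical) at or below a given gene length (left) and 3' UTR length above 0 (right), in bases on log axes, for lower members (blue), higher members (red) and all genes of at least 3 RPM (grey). The lower members lie to the right of the higher members over most of the left panel and in the upper part of the right panel.

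By position, 3 lower members (MAGIX, MUM1L1 and WWC3) and 2 higher members (CXorf38 and RBMX2) lie on chromosome X, which holds 2.89% of the 9897 genes. Chromosome 19 holds 6 higher members, but its share of all genes was not counted, so this count has no reference. THNSL1 and GPR158, both higher, were the 1 pair of members within 1 Mb of each other, with 148337 bases between them on chromosome 10 in GRCh38.p14. On their other side ARHGAP21, a GTPase-activating protein, averaged 29.2 ± 2.98 RPM with siRNA 2, 28.2 ± 3.40 RPM with siRNA 1 and 30.6 ± 4.94 RPM in control (SD, n = 3 each). ENKUR, which overlaps THNSL1, was at or near 0 in every library. The log2 changes of ARHGAP21 were -0.05 with siRNA 2 and -0.11 with siRNA 1 (limma adjusted p = 0.961 and 1.00).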

How the data were processed

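The expression of 20812 genes was measured in 9 SKBR3 libraries, 3 each of PVRL4 siRNA 2, PVRL4 siRNA 1 and control siRNA, grouped and numbered as the sample titles say. Library input was 100 ng of total RNA and the kit was Ion AmpliSeq Transcriptome, per the labels' protocols, in which each gene is amplified as 1 short amplicon. A gene is thus read at its amplicon alone, levels of different genes are not compared, and a paralog or overlapping transcript that shares an amplicon cannot be told apart. The authors deposited RPM values. The submitters' processing notes name hg19 as the build, and the aligner and counting tool are not given in the sources used here. Divided by the value of 1 read, 100% of values in each library came out whole within 0.1 read. In siRNA 2 replicate 1 that value is 0.0998 RPM, so close to a round decimal that a separate check of the column did not accept its reads as recovered. These recovered read counts, taken from the RPM values the authors deposited, were used in edgeR and DESeq2. The floor of 3 reads corresponds to 0.280 to 0.299 RPM. Libraries of a group differed by more than counting noise (chi-square per degree of freedom 8.90 to 23.9), so none was treated as a copy. Whether replicates are separate cultures is not stated in the labels, and p-values therefore measure spread among these samples that could be technical.

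The members, the 31 gene lists and the families were chosen with earlier results of these data known. Members were found on the RPM values with Python 3.11.15, pandas 2.3.3 and NumPy 2.4.6. Tests used limma 3.58.1 in R 4.3.3 on log2(RPM + 1) with a trended prior variance, for 11158 genes averaging 1 RPM or more, all 9 libraries in 1 fit, two-sided, with Benjamini-Hochberg adjustment over all of them. A fold change on this scale understates that of low genes. Up to 15 lower and 15 higher members with the largest smaller-of-both change are given library by library, together with CBFB as the member past the threshold between the siRNAs, and other members by range. The values of 1 lower member are not reported here. List genes are named where a list holds a member, 2 per siRNA with the smallest p. Samples are paired by the replicate numbers of their titles, since the 9 same-numbered pairs of different groups had deviations from their group means that correlated at 0.252 to 0.417, where the 18 other pairs gave -0.340 to -0.0275. The fit with that number as a block is given where it changes a call.

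Alternatives were 3 other scalings (quantile, TMM, median-of-ratios), pseudocounts of 0.1 and 5, no filter or one of 5 RPM, the block, the 6 libraries compared alone, no trend, edgeR 4.0.16, DESeq2 1.42.0, other minimum levels and fold limits, and each library left out. Gene positions, gene lengths and promoters are RefSeq's in GRCh38.p14, matched by gene ID, and the authors' hg19 coordinates were not used. The 3' UTR lengths are from the GENCODE basic annotation, for the transcript of each gene with the longest coding sequence.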

Additional observations from a re-analysis of the deposited data

Results flagged for a closer look

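CBFB, the partner of RUNX transcription factors, differed between the siRNAs in the fit over all 9 libraries. Its log2(RPM + 1) was lower with siRNA 2 than with siRNA 1 by a difference of -0.50 (limma adjusted p = 0.0228), while its mean lay below control with both, at 47.7 RPM with siRNA 2, 67.8 RPM with siRNA 1 and 85.0 RPM in control. The lower level held in 3 of 3 siRNA 2 libraries against each siRNA 1 library. The adjusted p by limma was above the threshold on the 6 siRNA libraries alone (0.0603), without the trend (0.0579) and when any of 4 single siRNA libraries was left out (0.0506 to 0.101).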

How the results depend on the processing

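The counts of members depend on the terms of the choice. Lower and higher members numbered 129 and 87 with no fold limit, 3 and 2 with limits of 0.67 and 1.5, 23 and 14 with a minimum mean of 10 RPM, and 64 and 43 when each siRNA library was set against the control of its own number (the replicate block). A minimum of 1 RPM gave 34 higher members. Leaving out 1 library gave 37 to 101 lower and 23 to 85 higher members, since fewer libraries then have to be passed. The lower count was highest without control replicate 3 and was 86 without control replicate 1. The higher count was 51, 85 and 54 without control replicates 1, 2 and 3, and 41 when siRNA 2 replicate 3 was left out. In all 9 such repeats 16 of the 35 lower and 8 of the 22 higher members were chosen again. Other scalings gave 30 to 42 lower members, of which 27 to 31 were shared, and 23 to 28 higher members, of which 17 to 19 were shared.

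Members that differed between siRNA 2 and siRNA 1 numbered 2 with a pseudocount of 0.1, 3 with median-of-ratios, 2 with TMM and 2 with quantile scaling, 6 with the replicate block, 5 by DESeq2, and 0 with only the 6 libraries compared or with no trend. Leaving out 1 library gave 0 to 4. For all genes the count was 197 with no filter, 1041 with the replicate block, 212 with the 6 libraries, 192 with no trend, 523 by DESeq2 and 153 to 306 with 1 library left out. Of the 340 genes, 66 were higher with siRNA 2, against 102 of 334 with quantile scaling. List genes that passed with siRNA 2 numbered 5 with no filter, 47 with the replicate block, 3 with no trend, 19 by DESeq2 and 3 to 11 with 1 library left out, and with siRNA 1 they numbered 32 to 42. The direction of members against control was fixed by the choice, so its repeats are no sign of stability. Among the first 15 lower and first 15 higher members, 14 log2 differences from control moved by more than 1 SD, 12 of them without 1 control library. That of COL15A1 with siRNA 2 ran from -0.31 to -0.65 without 1 control library. The causes of these shifts were not tested. Depth limits the lowest members, of which 1 library held 13 reads.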
